A study of Mus musculus with 40 samples.

Results

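Moderate to severe dysplasia in A/J mice was compared with normal A/J tissue in 6 RNA sequencing libraries. They were taken by their labels for strain, grade and quality, out of the 25 libraries that passed quality control and the 40 sequenced. The comparison itself was chosen with earlier results of these data known. The 3 dysplasia libraries came from animals given 14 μmol in total of NTCU (N-nitroso-tris-chloroethylurea), a chloroethylating carcinogen that is painted on the skin and gives rise to squamous lesions of the airways. The 3 normal libraries came from animals that received the acetone vehicle, with 0 μmol of NTCU. Each grade had 2 libraries of cells cut out by laser capture microdissection (LCM) and 1 library of a whole lung section, and for a whole lung section the grade is the worst one seen in it. All the animals were A/J, an inbred strain without an engineered allele. By the study's methods they were females that entered it as young adults. Which libraries share an animal is not given in the labels, so that p-values measure the spread between these libraries. The grade and the vehicle were fully shared within each group, and a response to the carcinogen and the presence of a lesion cannot be told apart. For the second normal LCM library the grade label reads normal while its free-text line reads mild dysplasia. The grade label was used, and the gene list medians that moved most without that library are given below.

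The bronchial surface is kept up by basal cells, which carry keratin 5 and the transcription factor p63 and give rise to the ciliated cells that move mucus and to the club and secretory cells that make secretoglobins and mucins. Squamous dysplasia is a disordered replacement of this epithelium by stratified, keratin-rich layers. The alveoli behind the airways are lined by flat type 1 cells and by surfactant-making type 2 cells. Carcinogens of the NTCU class alkylate and cross-link DNA, a damage that engages p53 and its target genes, and injured airways commonly take up neutrophils and macrophages.

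The 6 libraries held between 10027565 and 14961501 expected counts, and their correlation over genes ranged from 0.757 to 0.949. Levels are given as log2 CPM (counts relative to library size, scaled by TMM, prior count of 2), and a log2 fold change is dysplasia over normal. Median TIN, a measure of how intact the transcripts were on a scale to 100, was 69.6 and 67.6 in the normal LCM libraries against 63.6 and 58.5 in the dysplasia LCM libraries, and 58.7 against 53.7 in whole lung. It was thus lower in every dysplasia library than in each normal library of the same type. The tissue content was uneven within each grade. Sftpc, the surfactant protein C gene of alveolar type 2 cells, was at 12.34 log2 CPM in the first normal LCM library and 4.74 in the second, and between 11.83 and 13.32 in the other 4 libraries. Krt5, the basal cell keratin, had the opposite order, with 5.01 in the first and 10.27 in the second normal LCM library. Epithelial Cdh1, from 6.71 to 8.57, was found in all 6. The T cell gene Cd3e ran from 0.37 in the second dysplasia LCM library to 7.25 in normal whole lung. Skeletal Acta1 reached 7.42 in the first dysplasia LCM library, so that LCM libraries also carried RNA of tissues outside the epithelium. The map of list levels by library shows the same unevenness. In such bulk libraries fewer cells of a type and less RNA per cell cannot be told apart.

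**Figure D1:**
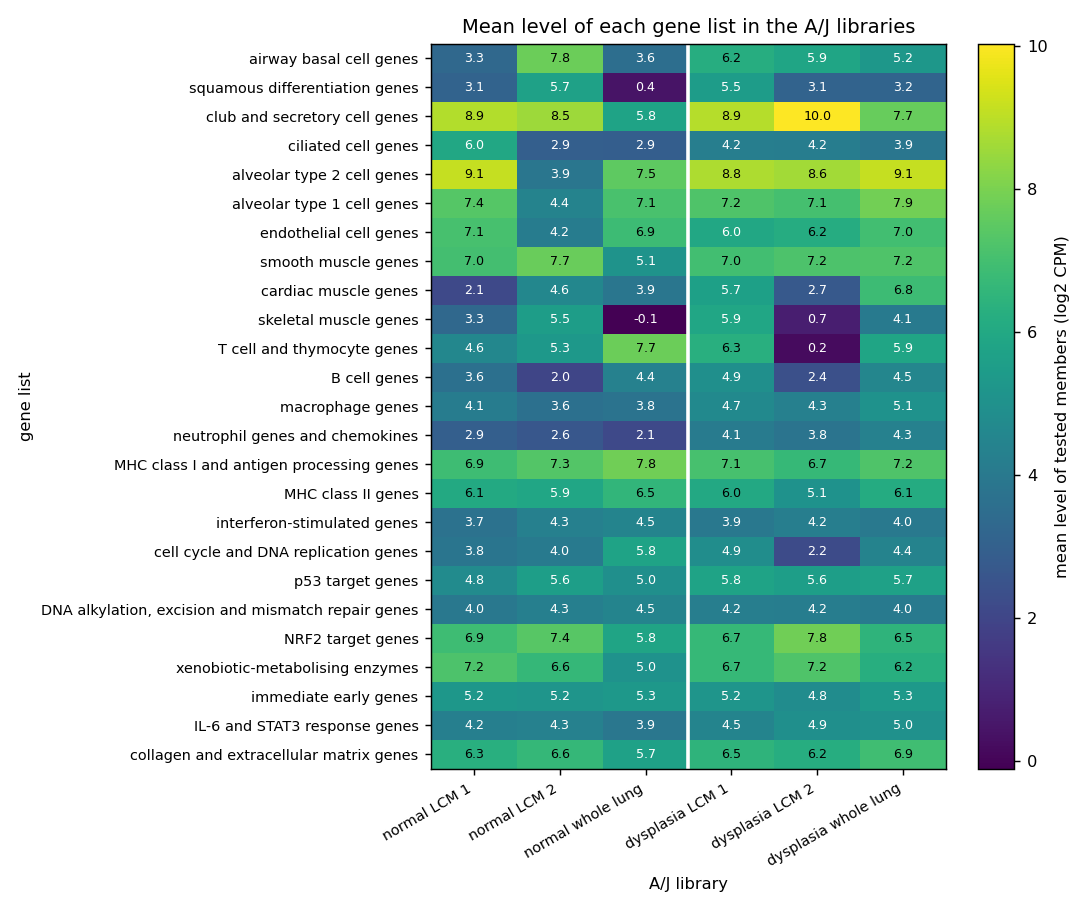
Mean level (log2 CPM, color and printed value) of the tested members of 25 gene lists (rows) in each of the 6 A/J libraries (columns, normal left of the white line). The T cell and thymocyte list is at 0.2 in the second dysplasia LCM library and 7.7 in normal whole lung, and the alveolar type 2 list is at 3.9 in the second normal LCM library and 7.5 or more in the other 5.

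No gene separated the grades at an adjusted p under 0.05. edgeR's quasi-likelihood test with sample type as a block tested 16237 genes and called 0 (0.0% higher, 0.0% lower), with 0.899 as the smallest Benjamini-Hochberg adjusted p. At an unadjusted p under 0.05 there were 494 genes, of which 268 were higher (1.65% of those tested) and 226 lower (1.39%) in dysplasia. limma-voom also called 0 genes, with 522 at an unadjusted p under 0.05 and 0.545 as its smallest adjusted p. DESeq2 called 24 genes, 22 higher (0.135%) and 2 lower (0.0123%). In 608 genes (3.74%) all 3 dysplasia libraries lay above all 3 normal libraries, and in 825 (5.08%) they all lay below. The median log2 fold change over all genes tested was -0.06, and 7141 of the 16237 genes had a positive one. Since nothing passed in edgeR, the 10 genes of each direction with the smallest unadjusted p are described next. They were required to be protein-coding, to average 3 log2 CPM or more, and to differ the same way in LCM and in whole lung, and each had an adjusted p of 0.899 in edgeR.

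The 10 genes higher in dysplasia were Ccl6, Scgb3a1, Mfsd2a, Lrg1, Ankrd1, Spp1, BC048546, Lcn2, Clec4n and Muc5b, at 2.48-fold to 27.4-fold the normal level, and DESeq2 called all 10. In 7 of them the grades did not overlap, beside 3.74% of all genes tested in that direction. The 10 were chosen for a small p in these libraries, so the count is a description. Scgb3a1 (chr11:49477112-49478620 in mm9, plus strand), a small secretoglobin of airway secretory cells, stood at 3.87 and 5.45 log2 CPM in the normal LCM libraries and 1.50 in normal whole lung, against 8.47 and 10.35 in the dysplasia LCM libraries and 6.07 in dysplasia whole lung. Each dysplasia library was above every normal one, although whole lung was lowest within both grades. The difference was 4.77 ± 0.73 (log2 fold change ± SE, n = 3 per grade), with an unadjusted p of 0.000888. With median TIN added to the fit it was 2.13 ± 0.85 (unadjusted p = 0.0585). Muc5b (chr7:149024975-149058990), the gel-forming mucin that is the main one of mouse airways, was at 5.17, 5.48 and 1.50 log2 CPM in the normal libraries and at 6.61, 9.16 and 4.95 in the dysplasia libraries. The dysplasia whole lung library lay below both normal LCM libraries, and overlap therefore remained, while the difference was 3.21 ± 0.70 (p = 0.00461).

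The window of 250 bases before the start of Scgb3a1 is shown because this gene had the largest difference of the 20, and the one of Lrg1 because Lrg1 is on the list of IL-6 and STAT3 response genes. Both are RefSeq promoter windows of GRCm38.p6, another build than that of the counts, written 5′ to 3′ on the gene's strand (Scgb3a1 at chr11:49663345-49663594, plus, and Lrg1 at chr17:56121947-56122196, minus). Capitals mark a match to the STAT motif.
Scgb3a1: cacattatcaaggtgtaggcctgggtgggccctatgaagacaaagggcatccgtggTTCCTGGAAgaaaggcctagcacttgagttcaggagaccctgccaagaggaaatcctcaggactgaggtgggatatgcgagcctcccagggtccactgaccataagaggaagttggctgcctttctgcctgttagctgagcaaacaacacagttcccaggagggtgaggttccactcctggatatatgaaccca
Lrg1: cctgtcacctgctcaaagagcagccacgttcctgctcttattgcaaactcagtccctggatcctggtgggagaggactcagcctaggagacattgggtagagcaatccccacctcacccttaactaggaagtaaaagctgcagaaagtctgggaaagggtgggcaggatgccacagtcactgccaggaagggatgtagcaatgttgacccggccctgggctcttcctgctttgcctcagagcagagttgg
The letters searched on both strands were TTCNNNGAA for STAT, GGNNTTTCC for NF-kB and TATAAA for the TATA box. Over all 32851 windows of this length in the table, 7.02% held the first, 4.93% the second and 12.4% the third. Of the 10 higher genes 7 had a window, 1 of them with the STAT letters (Scgb3a1, starting 194 bases before the start), 0 with the NF-kB letters and 1 with the TATA letters (Spp1). Of the 10 lower genes 8 had a window and 0 held any of the 3.

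Ccl6 (chr11:83401384-83406589), a CC chemokine of macrophages and other myeloid cells, stood at 4.78 and 5.06 log2 CPM in the normal LCM libraries and 4.62 in normal whole lung, against 6.96 and 6.50 in the dysplasia LCM libraries and 7.26 in dysplasia whole lung. The libraries of each grade were close together and the grades far apart, by 2.10 ± 0.29 (log2 fold change ± SE, n = 3 per grade), which had the smallest unadjusted p of the 20 genes (0.000478). Lcn2 (chr2:32240153-32243317), lipocalin-2, an iron-siderophore-binding protein of neutrophils and injured epithelium, was at 6.16, 5.72 and 4.03 log2 CPM in the normal libraries and at 7.72, 7.64 and 7.71 in the dysplasia libraries. The 3 dysplasia libraries were nearly equal while the normal ones were spread, with normal whole lung lowest, and the difference was 2.35 ± 0.49 (p = 0.00362). Lrg1 (chr17:56259103-56261369), leucine-rich alpha-2-glycoprotein, an acute-phase protein, was at 4.82, 4.49 and 4.71 log2 CPM in the normal libraries and at 6.0, 6.69 and 7.53 in the dysplasia libraries. Its normal libraries differed little among themselves and all lay under the dysplasia ones, by 2.09 ± 0.36 (p = 0.00144).

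Spp1 (chr5:104864137-104870069), osteopontin, a secreted matrix protein made by macrophages and epithelium, stood at 3.58 and 5.03 log2 CPM in the normal LCM libraries and 3.31 in normal whole lung, against 7.75 and 6.69 in the dysplasia LCM libraries and 8.25 in dysplasia whole lung. Dysplasia was higher throughout, by 3.52 ± 0.72 (p = 0.00342), and the second normal LCM library was the highest of its grade. Clec4n (chr6:123179861-123197039), the fungal lectin receptor Dectin-2 of myeloid cells, was at 2.95, 2.81 and 3.16 log2 CPM in the normal libraries and at 4.40, 3.89 and 4.46 in the dysplasia libraries. The gap was smaller but free of overlap, 1.31 ± 0.28 (p = 0.00402). Mfsd2a (chr4:122624093-122638431), a transporter of lysophosphatidylcholine lipids, was at 1.75, 2.43 and 1.41 log2 CPM in the normal libraries and at 4.46, 4.39 and 5.12 in the dysplasia libraries, a difference of 2.80 ± 0.44 (p = 0.000981) with no overlap. BC048546 (chr6:128489840-128531624) was at 4.39, 5.44 and 1.41 log2 CPM in the normal libraries and at 6.74, 7.52 and 5.41 in the dysplasia libraries. The normal LCM library with the higher value exceeded dysplasia whole lung slightly, and the difference was 2.75 ± 0.57 (p = 0.00357).

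Ankrd1 (chr19:36186455-36194334), a cardiac ankyrin repeat protein that is also induced in wounded tissue, was at 3.13, 2.16 and 4.20 log2 CPM in the normal libraries and at 5.06, 4.07 and 6.34 in the dysplasia libraries. The grades overlapped, with the normal whole lung library above the second dysplasia LCM library, and the difference was 2.02 ± 0.41 (p = 0.00318). Beside it, the list mean of the 9 cardiac genes was 2.11, 4.58 and 3.88 log2 CPM in the normal libraries and 5.66, 2.74 and 6.84 in the dysplasia libraries, and whether they play a part in the Ankrd1 difference was not tested. The plot of 19 of the 20 genes by library shows these levels. With median TIN added to the fit, 6 of the 10 higher genes and 0 of the 10 lower genes described next had an unadjusted p under 0.05, and Muc5b had a difference of 0.67 ± 1.24.

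**Figure D2:**
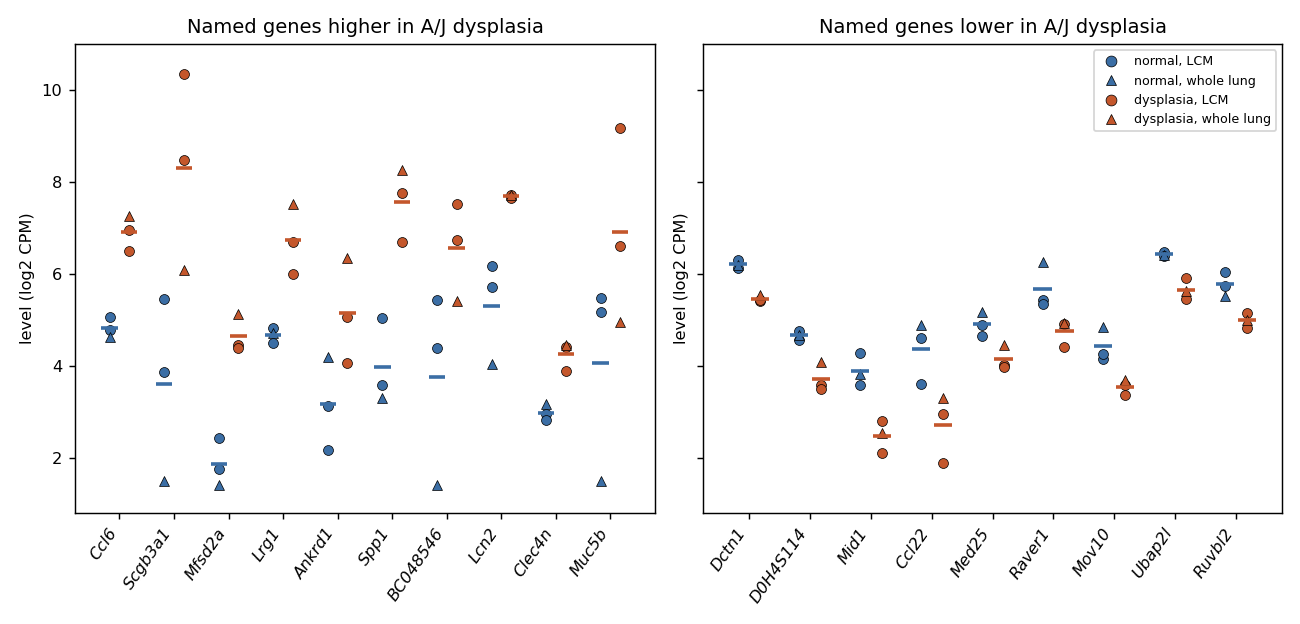
Level (log2 CPM, y axis) of the 10 genes higher (left) and 9 of the 10 genes lower (right) in A/J dysplasia, one point per library (blue normal, orange dysplasia, circles LCM, triangles whole lung) with the mean of each grade as a line. Ankrd1, BC048546 and Muc5b are the 3 genes in which the grades overlap, and the whole lung triangle is lowest of its grade for Scgb3a1 and Muc5b in both grades.

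The 10 genes lower in dysplasia were at 0.315 to 0.594 of the normal level. None was called by DESeq2. In all 10 the grades did not overlap, as in 5.08% of all genes tested, and these genes too were chosen for a small p. Ccl22 (chr8:97269490-97275599), a chemokine of dendritic cells and macrophages that draws CCR4-bearing T cells, stood at 3.60 and 4.61 log2 CPM in the normal LCM libraries and 4.90 in normal whole lung, against 2.96 and 1.88 in the dysplasia LCM libraries and 3.30 in dysplasia whole lung. It had the largest difference of the 10, -1.67 ± 0.44 (edgeR unadjusted p = 0.0108). Mid1 (chrX:166123129-166443668), a microtubule-associated ubiquitin ligase, was at 3.57, 4.27 and 3.82 log2 CPM in the normal libraries and at 2.81, 2.11 and 2.53 in the dysplasia libraries, a difference of -1.42 ± 0.37 (p = 0.0102). Dctn1 (chr6:83115914-83150111), a subunit of the dynactin complex that couples dynein to its cargo, was at 6.12, 6.31 and 6.19 log2 CPM in the normal libraries and at 5.41, 5.42 and 5.54 in the dysplasia libraries. The libraries within each grade were tight, and the difference of -0.75 ± 0.19 had the smallest p of the lower genes (0.00771).

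Among genes of RNA synthesis and handling, Med25, a Mediator subunit, differed by -0.76 ± 0.20. For Raver1, a nuclear RNA-binding protein, the difference was -0.92 ± 0.25, with normal whole lung at 6.25 and the other normal libraries at 5.44 and 5.34. Mov10, an RNA helicase, gave -0.89 ± 0.25. Ruvbl2, an ATPase of chromatin remodelling complexes, gave -0.79 ± 0.22. In Ubap2l, a stress granule protein, the normal libraries spanned only 6.39 to 6.47 and the dysplasia libraries 5.45 to 5.91 (-0.76 ± 0.21). D0H4S114 was at 4.56 to 4.75 in normal and 3.50 to 4.08 in dysplasia libraries (-0.95 ± 0.24). The unadjusted p of these 6 genes lay between 0.00922 and 0.014.

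DESeq2 called 14 further genes, which are outside the rule and are named because of that call. Lyz2, the lysozyme of macrophages and type 2 cells, was at 10.46, 11.28 and 9.41 log2 CPM in the normal libraries and at 12.16, 13.95 and 11.71 in the dysplasia libraries, without overlap (DESeq2 adjusted p = 0.0162). Reg3g, an antibacterial lectin of epithelia, was 7.47 in the second normal LCM library and 12.00 in the second dysplasia LCM library, and the grades overlapped because dysplasia whole lung was at 5.97. With median TIN added, Reg3g turned from 4.83 ± 1.60 to -0.67 ± 2.81, and Lyz2 was 0.18 ± 0.84 instead of 2.36 ± 0.58. Gp2, a glycoprotein that binds bacterial fimbriae on specialised epithelium, was at or under -0.04 in normal libraries and at 3.66, 4.14 and 0.47 in dysplasia libraries. Il1b, the inflammatory cytokine, differed by 1.38 ± 0.30. For Ccr1, a chemokine receptor of myeloid cells, the difference was 1.76 ± 0.38. Mmp8, the collagenase of neutrophils, was low throughout, with 2.92 as its highest value, and differed by 2.81 ± 0.50. Slc6a2, the noradrenaline transporter, gave 2.20 ± 0.49, the vesicle-trafficking gene Rab3c 3.29 ± 0.57 and the transcript AU040972 2.02 ± 0.48. Across the 24 genes called by DESeq2 the grades did not overlap in 19, beside 3.74% of all genes above and 5.08% below. The calls were made on these same libraries, so the count is a description. Some of the 19, such as Srp54a and Gm10335, had enough counts to be tested only through the dysplasia libraries. The pseudogenes Gm10233 and Gm10273, identical in every library, are both counted in it.

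Srp54a, which encodes a protein of the signal recognition particle, was at the floor of -2.63 log2 CPM (a count of 0) in all 3 normal libraries and at 3.58, 4.44 and 3.55 in dysplasia. The gene has near-identical copies in the mouse genome, and its reads can be split between them, so the value is uncertain. The same holds for Speer4c, a member of a multigene family (4.35 ± 0.92), and for the pseudogenes Gm10233 and Gm10273, the 2 lower calls, whose values were identical in every library (0.76, 3.54 and 2.59 in normal, -2.63, -0.89 and -2.63 in dysplasia) and therefore cannot be counted as separate results. Gm10335 was at the floor in both normal LCM libraries and at 2.64, 2.69 and 2.56 in dysplasia.

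The gene lists below hold no gene under an adjusted p of 0.05 in edgeR, so that their members are given by values and counts. The lists were chosen with earlier results of these data known, so these counts are a description. The median kept its sign under each of the 16 alternatives tried in 7 of the 25 lists (neutrophil, macrophage, IL-6 and STAT3, p53, MHC class I, alveolar type 2 and cardiac muscle), and took the other sign under at least 1 alternative in the remaining 18. Without the second normal LCM library, the one with the disputed grade, the medians that moved by more than 1.5 times, other than the 2 given below, were 1.41 for squamous, 0.013 for type 1, -0.63 for ciliated, 2.43 for skeletal, 2.63 for cardiac and 0.92 for smooth muscle genes, and 0.36 for B cell, 0.85 for p53, -0.44 for endothelial, 0.54 for collagen and -0.034 for xenobiotic genes. Airway epithelial genes did not separate the grades as a group. Of 10 basal cell genes 5 were higher and 5 lower, with a median log2 fold change of -0.05 and 0 at an unadjusted p under 0.05. Krt5 was at 5.01, 10.27 and 7.44 log2 CPM in the normal libraries and at 8.33, 7.12 and 6.93 in the dysplasia libraries, so that the grades overlapped widely (-1.15 ± 1.18). Krt15, another basal cell keratin, was at 5.18, 10.99 and 1.46 log2 CPM in the normal libraries and at 9.37, 10.42 and 7.85 in the dysplasia libraries (1.43 ± 2.11). Without the second normal LCM library the basal median was 1.80. The 20 squamous differentiation genes had a median of 0.60, 14 of them positive and 0 with an unadjusted p under 0.05, and a median of -0.38 in LCM libraries only. Krt4, a keratin of stratified mucosa, was at -0.56 in normal whole lung and 8.31 in dysplasia whole lung, while its LCM values ran from 8.65 to 11.22 across both grades (0.81 ± 2.30). Ly6d, a surface protein of squamous cells, differed by 0.12 ± 0.58.

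The club and secretory list was split by gene in the fit, although 13 members were higher in whole lung and 10 by the difference of LCM means. Its 14 members had a median of 0.36 with 8 positive, and 2 of them, Scgb3a1 and Muc5b, had an unadjusted p under 0.05 (1.65% of all genes). Scgb1a1, the club cell secretoglobin and one of the most abundant transcripts, was at 17.61, 11.83 and 14.36 log2 CPM in the normal libraries and at 15.04, 14.88 and 14.43 in the dysplasia libraries (-1.11 ± 1.33). Cbr2, a carbonyl reductase of club cells, gave -0.48 ± 0.56. Bpifa1, an antimicrobial airway secretory protein that was outside the rule, was at 5.48 and 4.45 in the first LCM and the whole lung normal library but 13.32 in the second, against 13.28, 15.23 and 11.25 in dysplasia (p = 0.158). Ciliated cell genes, 20 of 23 found and tested, had a median of -0.22 with 8 positive and 0 under p 0.05. In whole lung 18 of the 20 were higher in dysplasia, and by the difference of LCM means 7 were. Foxj1, the ciliation transcription factor, was at 7.45, 4.64 and 5.04 log2 CPM in the normal libraries and at 5.61, 5.48 and 6.46 in the dysplasia libraries (-0.31 ± 0.90), and Ccdc153, an axonemal gene, gave 0.36 ± 0.88.

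The medians of both alveolar lists were positive. The type 2 list had a median of 1.07 with 8 of 10 positive, 1 with an unadjusted p under 0.05 (1.65% of all genes) and 2 without overlap (3.74%). Sftpd, a surfactant collectin that also opsonises microbes, was at 9.39, 8.04 and 7.02 log2 CPM in the normal libraries and at 9.93, 10.21 and 9.76 in the dysplasia libraries and had a difference of 1.71 ± 0.53 (p = 0.0211). Sftpc (1.15 ± 1.46) and Sftpa1 (1.50 ± 1.20) overlapped between the grades. The list mean was 3.87 in the second normal LCM library and 7.50 to 9.14 in the other 5, and the type 2 median was 0.53 without that library and 3.98 without the first normal LCM library. All 10 type 1 genes were positive, with a median of 0.40 that became 0.013 without the second and 0.99 without the first normal LCM library. Pdpn, podoplanin, was between 5.56 and 5.86 in normal and between 6.19 and 6.72 in dysplasia libraries (0.85 ± 0.24, p = 0.0134). The water channel Aqp5 gave 0.78 ± 0.64 and the membrane protein Emp2 0.21 ± 0.34.

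**Figure D3:**
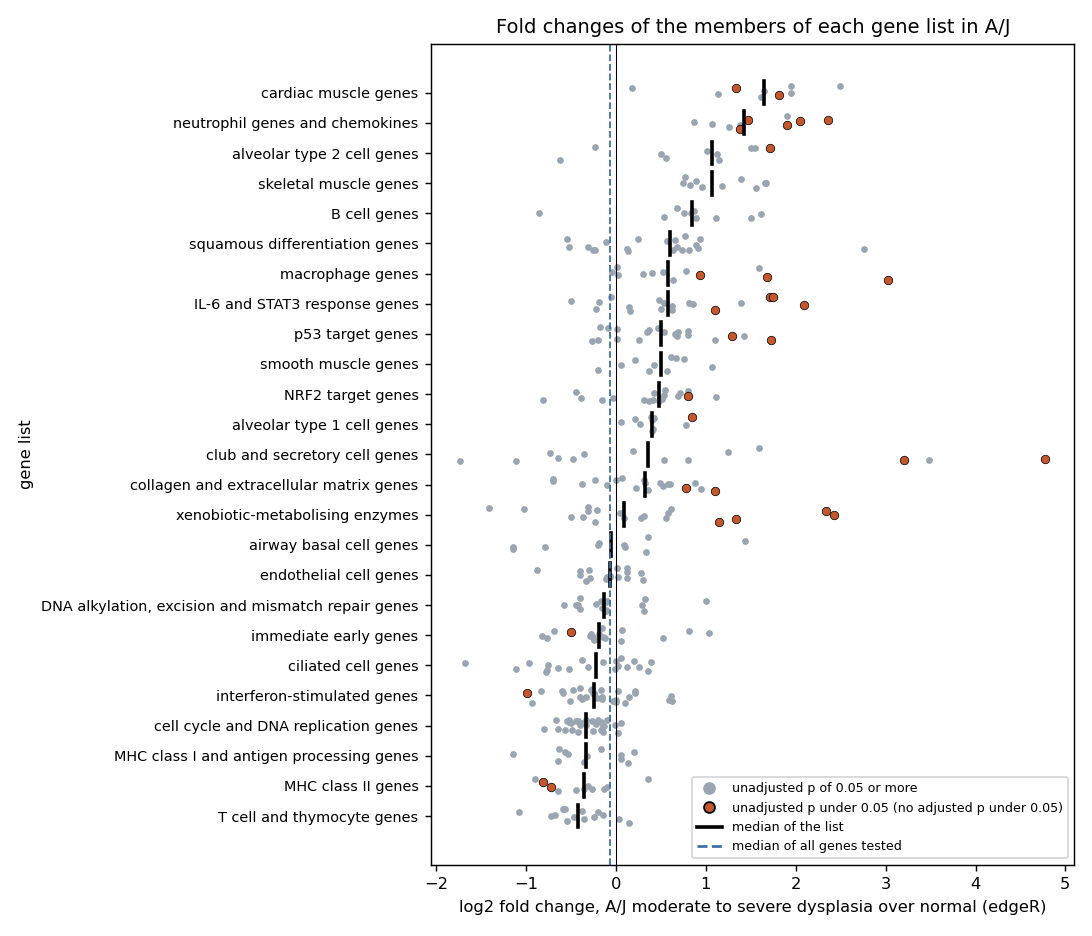
Log2 fold change of dysplasia over normal in A/J (x axis, edgeR) for each tested member of the 25 gene lists (y axis, ordered by list median). Orange points have an unadjusted p under 0.05, black bars are list medians and the dashed line is the median of all genes tested (-0.06). All 10 neutrophil points lie right of 0, with a median of 1.42, and 2 of 30 cell cycle points do.

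Neutrophil genes and neutrophil-drawing chemokines had positive differences in all members tested. Of 14 members 10 had enough counts to be tested. All 10 were positive, with a median log2 fold change of 1.42 against -0.06 over all genes. Of these, 5 had an unadjusted p under 0.05 (1.65% of all genes did in that direction), and in 4 the grades did not overlap (3.74%). Lcn2 and Il1b, given above, are among the 5 and also among the 4. The list mean was 2.94, 2.63 and 2.14 in normal and 4.11, 3.79 and 4.33 in dysplasia libraries, so the grades did not overlap in the mean either. S100a8, a calgranulin of neutrophil cytosol, was at 3.62, 3.35 and 3.32 log2 CPM in the normal libraries and at 6.06, 3.87 and 5.71 in the dysplasia libraries (2.05 ± 0.59, p = 0.015). S100a9, its partner, overlapped between the grades, since the second dysplasia LCM library was at 4.48 and normal libraries reached 4.73 (1.91 ± 0.66). Cxcl1, a ligand of the neutrophil receptor CXCR2, was low but separated, from 0.03 to 1.48 in normal and from 1.53 to 3.16 in dysplasia (1.46 ± 0.53, p = 0.0342). The receptor gene Cxcr2 itself gave 1.07 ± 0.53 (p = 0.0909). Leaving out any 1 library kept the list median between 1.31 and 1.65.

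Macrophage genes were positive in 11 of 12, with a median of 0.58, 3 under p 0.05 (1.65% of all genes) and 3 without overlap (3.74%). Those 3 were Chi3l3, a chitinase-like lectin of alternatively activated and alveolar macrophages, which was at 3.43, -0.13 and 2.07 log2 CPM in the normal libraries and at 5.58, 4.07 and 6.12 in the dysplasia libraries (3.02 ± 1.04, p = 0.0304), the mannose receptor Mrc1 (0.94 ± 0.32, p = 0.0275), and Siglec5, a sialic acid-binding lectin, which stayed low at no more than 2.51 (1.69 ± 0.59, p = 0.0317). Among the abundant macrophage genes, C1qa, a complement subunit, gave 0.02 ± 0.25 and Ctss, a lysosomal protease, 0.63 ± 0.37. Without the dysplasia whole lung library the macrophage median was 0.21.

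Lymphocyte genes followed single libraries. The 14 T cell and thymocyte genes had a median of -0.42 with 2 positive and 0 under p 0.05. Their mean was 4.60, 5.29 and 7.74 in normal libraries and 6.27, 0.18 and 5.85 in dysplasia libraries. Cd8a was at 0.50 in the second dysplasia LCM library and at 6.03 or more in the other 5, and Lck, the T cell receptor kinase, at 2.41 and 6.24 or more. Rag1 and Dntt, which are made by developing thymocytes, reached 8.85 and 8.78 in normal whole lung and 7.42 and 7.81 in the first dysplasia LCM library. Without that dysplasia LCM library the T cell median was -3.28. B cell genes had a median of 0.85, with 9 of 10 positive and 0 under p 0.05. Igj, the joining chain of secreted antibodies, was between 5.70 and 9.69 in dysplasia and between 7.01 and 7.27 in normal libraries (1.50 ± 0.93), and Cd79b gave 0.53 ± 0.70.

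Genes of antigen presentation by MHC class II had small negative differences, with a median that turned to 0.54 when median TIN was added. Of 11 found 1 was positive, the median was -0.36, 2 had an unadjusted p under 0.05 (1.39% of all genes did in that direction) and 3 did not overlap (5.08%). H2-DMa, which loads peptides, was at 5.07, 4.93 and 5.56 log2 CPM in the normal libraries and at 4.35, 3.82 and 4.93 in the dysplasia libraries (-0.81 ± 0.24, p = 0.0156). H2-Ab1, a class II beta chain, differed by -0.72 ± 0.26 (p = 0.0345), and its dysplasia whole lung value of 7.89 just overlapped with the lowest normal value of 7.87. The invariant chain Cd74 (-0.45 ± 0.32) and H2-Aa (-0.27 ± 0.30) had a larger p. MHC class I and antigen processing genes had a median of -0.34, 4 of 12 positive and 0 under p 0.05, with H2-K1 at 0.05 ± 0.27 and B2m at 0.20 ± 0.26. Interferon-stimulated genes had a median of -0.24, with 8 of 31 positive and 1 lower gene under p 0.05 (1.39% of all genes), Oasl2 (-0.99 ± 0.35, p = 0.0325). In 5 of the 31 all dysplasia libraries were below all normal ones (5.08% of all genes). They include Irf1, the interferon-regulated transcription factor (-0.26 ± 0.21), Rtp4 (-0.51 ± 0.22) and the RNA sensors Ddx58 (-0.40 ± 0.19) and Dhx58 (-0.58 ± 0.30).

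The p53 targets were positive in 16 of 20, with a median of 0.50, 2 under p 0.05 (1.65% of all genes) and 4 without overlap (3.74%). Ccng1, cyclin G1, was at 6.58, 7.94 and 6.55 log2 CPM in the normal libraries and at 8.64, 8.35 and 8.23 in the dysplasia libraries (1.29 ± 0.42, p = 0.0253). Cdkn1a, the p21 inhibitor of the cell cycle, was at 5.70, 7.43 and 5.80 log2 CPM in the normal libraries and at 7.70, 7.67 and 8.35 in the dysplasia libraries. Every dysplasia library lay above every normal one, though the second normal LCM library came close to them, and the difference was 1.42 ± 0.60 (p = 0.0587). Eda2r, a death-domain receptor, gave 1.73 ± 0.64 (p = 0.0382), while Btg2, an antiproliferative target, gave -0.26 ± 0.41 and Mdm2, which degrades p53, 0.01 ± 0.19. Cell cycle and DNA replication genes were positive in 2 of 30, with a median of -0.33 and 0 under p 0.05. Their mean was 3.83, 4.04 and 5.77 in normal and 4.86, 2.21 and 4.42 in dysplasia libraries, an order close to that of the T cell and thymocyte means. The part of lymphocytes in it was not tested. Mki67, a marker of dividing cells, was at 6.14, 5.67 and 8.75 log2 CPM in the normal libraries and at 7.53, 2.90 and 7.30 in the dysplasia libraries (-0.01 ± 1.16), and Pcna gave -0.14 ± 0.43. Among 16 genes of DNA alkylation, excision and mismatch repair 4 were positive and 0 had p under 0.05, with a median of -0.13. Lig3, the ligase of single-strand break repair, was the 1 gene without overlap (-0.41 ± 0.22), beside 5.08% of all genes in that direction. Parp1 (-0.12 ± 0.21) and Msh6 (-0.44 ± 0.52) overlapped.

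IL-6 and STAT3 response genes, 18 of 20 tested, were positive in 14 with a median of 0.57, 4 of them under p 0.05 (1.65% of all genes) and 2 without overlap (3.74%). Beside Lrg1 the 4 were Cebpd, a transcription factor of the acute phase (1.10 ± 0.32, p = 0.015), the cytokine Lif (1.72 ± 0.65, p = 0.0416) and Timp1, an inhibitor of metalloproteinases (1.74 ± 0.66, p = 0.0415). Cebpd was at 5.43, 5.78 and 4.55 log2 CPM in the normal libraries and at 6.08, 6.66 and 6.30 in the dysplasia libraries. The shared receptor Il6st (-0.22 ± 0.25) and Stat3 itself (-0.05 ± 0.21), the most abundant of the list, had values close to the median of all genes. Immediate early genes had a median of -0.18, with 5 of 17 positive and 1 lower gene under p 0.05 (1.39% of all genes), Jund (-0.50 ± 0.20, p = 0.0459). Dusp1 gave 0.52 ± 0.43. Targets of NRF2, the oxidant-response factor, had a median of 0.48 with 14 of 19 positive. Gclc, which sets the rate of glutathione synthesis, was the only one under p 0.05 (0.80 ± 0.32, p = 0.0474), beside 1.65% of all genes. Tkt gave 0.80 ± 0.86 and Prdx1 0.69 ± 0.34.

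Enzymes of xenobiotic metabolism had a median near 0, 0.08, with 11 of 19 positive, and 4 of the 19 were higher at an unadjusted p under 0.05 (1.65% of all genes) and 2 did not overlap (3.74%). Cyp2a5, a P450 that activates nitrosamines, was at 8.35, 10.54 and 4.82 log2 CPM in the normal libraries and at 10.72, 11.68 and 9.11 in the dysplasia libraries (2.34 ± 0.93, p = 0.0491). Cyp2e1 (1.34 ± 0.52, p = 0.0446) and the sulfotransferases Sult1a1 (1.14 ± 0.33, p = 0.0148) and Sult1d1 (2.42 ± 0.82, p = 0.0287) were the other 3. Cyp4b1, an abundant lung P450, gave -0.23 ± 0.52.

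In the stroma, collagen and matrix genes had a median of 0.32 with 13 of 19 positive and 2 under p 0.05 (1.65% of all genes). These were Postn, periostin (0.78 ± 0.30, p = 0.0448), and Lox, the collagen cross-linking oxidase (1.11 ± 0.42, p = 0.043). Lox was at 4.49, 4.07 and 3.96 log2 CPM in the normal libraries and at 5.20, 4.51 and 6.09 in the dysplasia libraries. Col3a1 and Col5a2 also did not overlap (0.95 ± 0.44 and 0.88 ± 0.40), and Col6a2 was the 1 gene lower in every dysplasia library (-0.70 ± 0.30). Of all genes, 3.74% lay above and 5.08% below in this way. Sparc (0.07 ± 0.45) and Dcn (0.49 ± 0.45) overlapped, and without the dysplasia whole lung library the median of the list was -0.16. Without that library the smooth muscle median was -0.29. With all 6, smooth muscle genes had a median of 0.50 (9 of 10 positive, 0 under p 0.05), with Acta2 at 0.06 ± 0.58 and Tagln at 0.67 ± 0.59. Endothelial genes, at 1.02 without the first normal LCM library, had a median of -0.07 (7 of 17 positive, 0 under p 0.05), with Pecam1 at -0.06 ± 0.57 and Egfl7 at 0.01 ± 0.65.

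Striated muscle genes were uneven between libraries. All 9 cardiac genes were positive, with a median of 1.64. Tnnt2, cardiac troponin T (1.81 ± 0.47, p = 0.0098), and Myh6, a cardiac myosin heavy chain (1.34 ± 0.53, p = 0.0478), were under p 0.05 (1.65% of all genes). Tnnt2 was at 2.82, 4.27 and 4.95 log2 CPM in the normal libraries and at 5.71, 4.87 and 7.09 in the dysplasia libraries. Myl4 gave 1.94 ± 1.11 and Actc1 0.18 ± 0.61. All 10 skeletal genes were positive too, with a median of 1.06 and 0 under p 0.05, and their mean ran from -0.11 in normal whole lung to 5.89 in the first dysplasia LCM library. Without that library the skeletal median was -0.24 and the cardiac one 0.92, and by the difference of LCM means 2 of the 10 skeletal and 6 of the 9 cardiac genes were positive. Ckm, muscle creatine kinase, was at 5.20, 7.50 and 2.71 log2 CPM in the normal libraries and at 7.85, 3.06 and 6.39 in the dysplasia libraries (1.18 ± 1.52), and Tnnt3 gave 1.56 ± 1.42.

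Whether the grades differed by another amount in LCM than in whole lung was tested as an interaction. edgeR called 0 of 16237 genes (0.0%) and DESeq2 called 3. In edgeR 215 genes had an unadjusted p under 0.05. The log2 fold change was more positive in whole lung in 1.09% of all genes and more negative in 0.234%. There is 1 whole lung library per grade, so that the whole lung difference has no replicate of its own. For the 20 genes the smallest unadjusted p of the interaction was that of Lcn2 (0.0194), whose whole lung difference was 3.68 and whose LCM difference, between means of 2, was 1.74 log2 CPM.

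The grade difference in A/J was set beside that in SWR/J mice, another inbred strain given the same carcinogen. The A/J values are those of the 6-library fit above, with sample type but without median TIN. The SWR/J values come from a fit of 16 libraries of both strains with sample type and median TIN as covariates. The strains are therefore not adjusted alike where their values stand side by side. The SWR/J side had 6 libraries of moderate to severe dysplasia (3 LCM and 3 whole lung, 25 to 30 μmol of NTCU) and 4 normal libraries (1 LCM and 3 whole lung, 0 μmol), none shared with A/J. The strain and the dose cannot be told apart here. Median TIN was 23.7 to 48.4 in SWR/J dysplasia and 28.9 to 60.7 in SWR/J normal libraries. In that edgeR fit the SWR/J grade difference had 0 of 17147 genes under an adjusted p of 0.05 (0.0%). At an unadjusted p under 0.05, 856 genes were higher (4.99%) and 525 lower (3.06%). The fit also held the A/J libraries and shared its covariate terms with them. The SWR/J values are therefore not independent of A/J, and the shares that follow are a description. Of the 268 genes higher in A/J at an unadjusted p under 0.05, 184 (68.7%) were also higher in SWR/J, against 58.1% of all genes that were higher in A/J. At an unadjusted p under 0.05 in SWR/J there were 62 of the 268 (23.1%), against 7.40% of all those higher in A/J. For the 226 lower genes the shares were 40.3% and 3.98%, against 47.3% and 3.03% of all genes lower in A/J.

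Among the 10 higher genes 7 had the same direction in SWR/J, and 5 of them an unadjusted p under 0.05 there. Mfsd2a differed by 2.63 ± 0.65 in SWR/J (p = 0.00145) beside 2.80 ± 0.44 in A/J. Lrg1 gave 2.29 ± 0.58 (p = 0.00174), Spp1 3.47 ± 1.15 (p = 0.00987), Lcn2 2.07 ± 0.93 (p = 0.0442) and Clec4n 2.57 ± 0.88 (p = 0.012). Lcn2 in SWR/J spanned 1.95 to 7.62 log2 CPM with a median of 5.53 in normal libraries, and 5.22 to 9.61 with a median of 8.07 in dysplasia libraries, so that the grades overlapped there. The 10 lower genes were split, 5 lower and 5 higher in SWR/J, and 0 had an unadjusted p under 0.05. The list medians of A/J (without median TIN) and SWR/J (with it) had opposite signs in 9 of the 25 lists, and no list was tested between the strains. Some signs changed with median TIN added in A/J, where the immediate early median was 0.51 and the MHC class II median 0.54. The count of 9 therefore depends on that covariate too. B cell genes were at 0.85 in A/J and -0.92 in SWR/J. Of the 10, 5 were under an unadjusted p of 0.05 for the interaction of grade and strain, the most of any list. Of all genes, 1.04% were under it with a more positive and 2.13% with a more negative log2 fold change in A/J. Immediate early genes were at -0.18 and 0.85 (16 of 17 positive in SWR/J), squamous genes at 0.60 and -1.18 (0 of 20 under p 0.05 for the interaction) and club and secretory genes at 0.36 and -0.24 (3 of 14). The medians of neutrophil genes were 1.42 and 2.45, of IL-6 and STAT3 genes 0.57 and 1.09, of p53 targets 0.50 and 0.96, of MHC class II -0.36 and -0.72 and of cardiac genes 1.64 and 0.13, beside -0.06 and 0.06 over all genes. The plot of both strains shows 19 of the 20 genes with their errors.

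**Figure D4:**
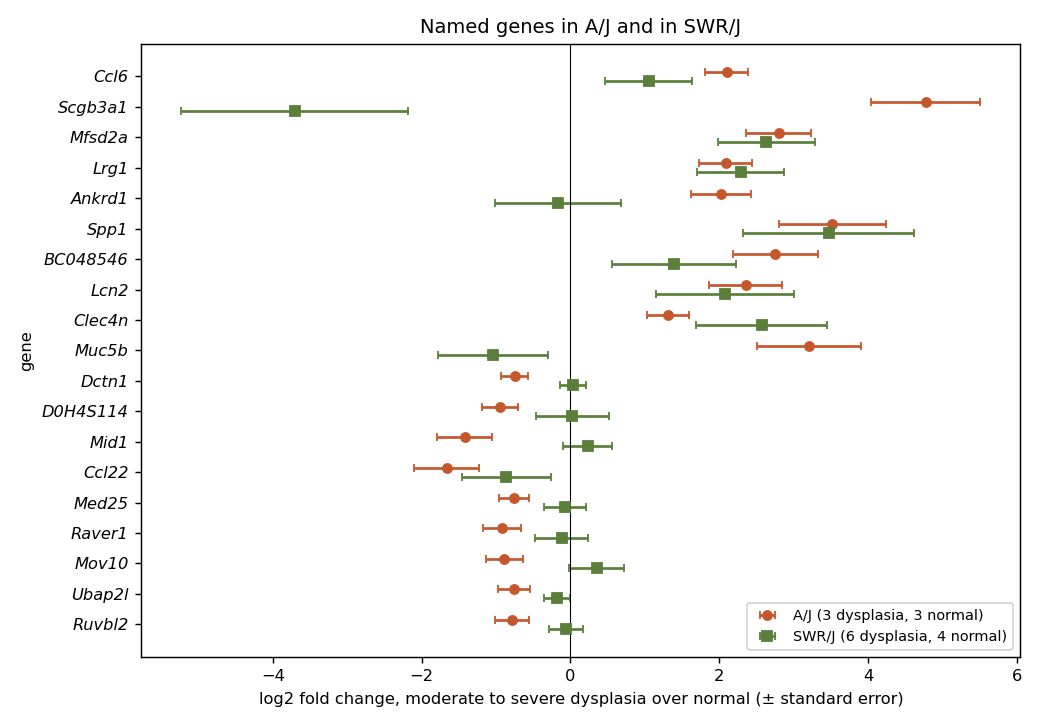
Log2 fold change of moderate to severe dysplasia over normal (x axis, points, with the standard error as bars) of 19 of the 20 named genes (y axis) in A/J (orange circles, 3 against 3 libraries) and in SWR/J (green squares, 6 against 4 libraries). Scgb3a1 lies at 4.77 in A/J and -3.71 in SWR/J, while Mfsd2a, Lrg1, Spp1 and Lcn2 lie within 1 standard error of each other. The SWR/J values, unlike the A/J ones, are from a fit with median TIN.

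The test of the difference itself, grade by strain, called 0 of 17147 genes in edgeR (0.0%) and 17 in DESeq2. In edgeR 544 genes had an unadjusted p under 0.05. The log2 fold change was more positive in A/J in 1.04% of all genes and more negative in 2.13%. By its fitted values Scgb3a1 was opposite in the strains. Its SWR/J difference was -3.71 ± 1.52 (edgeR unadjusted p = 0.0304). Within the fit of both strains, the A/J difference exceeded it by 8.14 ± 1.92 (edgeR unadjusted p = 0.000983, adjusted p of 1, DESeq2 adjusted p = 0.000197). Its SWR/J levels were spread widely, from 3.23 to 12.54 in normal and from 2.83 to 9.38 in dysplasia libraries. The medians of 5.99 and 6.04 were nearly equal, unlike the fitted SWR/J value, and the reason was not tested. Bpifb1, an airway secretory protein of the BPI family, had the same order, with 1.60 ± 0.65 in A/J and -4.72 in SWR/J (DESeq2 adjusted p = 4.73e-05). The interferon-induced GTPases Gbp1 and Gbp2 differed by -0.20 ± 0.24 and -0.01 ± 0.19 in A/J beside -2.99 and -1.08 in SWR/J (DESeq2 adjusted p = 0.0183 and 0.0352 for the difference). Bpifb1, Gbp1 and Gbp2 were chosen after their values were seen.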

How the data were processed

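RNA from laser-capture-microdissected cells and whole lung sections was sequenced by the authors as single-end reads of TruSeq libraries, a kit that does not keep the strand, so a gene and an antisense partner cannot be told apart. The reads were trimmed with Trimmomatic, aligned to mm9 with STAR and counted with RSEM. The deposited values are RSEM expected counts per gene, not normalized, of which 80.2% were whole numbers in the 6 A/J columns. They were rounded to whole numbers. All 37310 gene identifiers matched an annotation of the same assembly, and the sample labels (grade, dose, median TIN) came from the deposited descriptions.

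edgeR 4.0.16 in R 4.3.3 was used with TMM scaling, filterByExpr, the robust quasi-likelihood test and sample type as a block. Benjamini-Hochberg adjustment was over all genes tested (threshold 0.05). The filter took the grade as group, and strain and grade in the strain comparison. The standard error is the absolute log2 fold change divided by the square root of F. The strain comparison used 16 libraries, with median TIN added. DESeq2 1.42.0, limma 3.58.1 (voom), other scaling, filters, covariates and sample sets were alternatives. The fits of the grade comparison and of both interactions were tried on simulated counts with edgeR, DESeq2 and limma-voom. Samples that did not pass quality control were not used.

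The gene lists, the libraries compared and the rule for named genes were chosen with earlier results of these data known. The rule took up to 10 genes per direction past the threshold that averaged 1 log2 CPM or more. As there were 0, it took the 10 protein-coding genes of smallest unadjusted p that averaged 3 log2 CPM or more and differed in one direction in LCM and whole lung. It also took the 2 members of each list with the highest mean level. Of the genes it took, 2 are not reported here. Other genes named are list members with an unadjusted p under 0.05 or without overlap, or were chosen after their values were seen. With 10027565 to 14961501 expected counts per library, precision is given by the spread between libraries.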

Additional observations from a re-analysis of the deposited data

Results flagged for a closer look

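Squamous carcinoma and carcinoma in situ were not part of the comparison, yet 2 A/J libraries of these grades passed quality control, and 9 of the 10 genes higher in dysplasia were also above every A/J normal library in both of them. These genes were chosen as high against the same normal libraries, so the count is a description, and 18.5% of all 16237 genes tested lay above every normal library in this way. These levels were scaled over all 8 A/J libraries and so differ slightly from those given above. The lower of the carcinoma libraries was at 7.37 log2 CPM for Ccl6, where the highest normal library was at 5.03. The corresponding pairs were 8.51 and 5.41 for Scgb3a1, 4.41 and 2.40 for Mfsd2a, 7.41 and 4.78 for Lrg1 and 8.74 and 4.99 for Spp1. For BC048546 they were 6.50 and 5.40, for Lcn2 9.64 and 6.13, for Clec4n 3.47 and 3.13, and for Muc5b 5.91 and 5.44. Ankrd1 was the exception. The carcinoma animals had a higher dose of the carcinogen, and these values were not tested.

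Single SWR/J libraries stood apart by Dixon's criterion, which chance meets in about 1 of 20 groups. Dctn1 was at 5.81 log2 CPM in 1 of the 4 SWR/J normal libraries and at most 5.44 in the others. Med25 was at 3.07 in 1 of the 6 SWR/J dysplasia libraries and at least 3.90 in the others. In neither gene is the A/J difference affected, since these libraries are not part of it.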

How the results depend on the processing

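The counts of called genes depended on the tool. DESeq2 called 22 higher and 2 lower genes, 3 for the interaction with sample type and 17 for the one with strain, where edgeR called 0, and without SWR/J normal replicate 7 edgeR called 1 gene for the strain, so that its counts without single replicates ran from 0 to 1. For A/J all other alternatives called 0 genes, with 161 to 2251 at an unadjusted p under 0.05, the highest without the first dysplasia LCM library and 1052 without the second normal LCM library. The cause was not tested. No paired analysis was possible because the labels give no replicate numbers shared between groups.

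The 20 named genes kept their direction in 320 of 320 alternative values, and 10 of these were past the threshold, all in DESeq2. These genes were chosen from the same libraries for a small p and 1 direction in both sample types. A reversal was therefore unlikely from the start, and the count is a description. Of 49 list members named for their level, 34 had the other sign in at least 1 alternative. With median TIN added, list medians were 1.88 (ciliated), 3.56 (cardiac), 5.12 (skeletal), 3.99 (T cell), 3.60 (B cell), 1.21 (macrophage), 2.18 (neutrophil), 0.54 (MHC class II), -0.77 (interferon), 1.16 (cell cycle), -0.88 (NRF2), 0.51 (immediate early) and 0.88 (collagen). The repair median was 0.079 in LCM libraries only. Leaving out single libraries gave -0.79 to 1.80 for basal, -0.87 to 1.21 for ciliated, 0.53 to 3.98 for type 2, -3.28 to 0.28 for T cell, 0.21 to 0.85 for macrophage, 0.35 to 0.85 for p53, -0.23 to 0.079 for repair and -0.16 to 0.55 for collagen genes. The remaining 433 of 460 values for counts and lists moved by less than the spread between libraries or, for counts, by less than 1.5 times.

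With 3 libraries per grade, a difference shared by all of them had to be large against its spread to pass, and median TIN was lower in dysplasia within each sample type, so that grade and median TIN are hard to tell apart in the fit with both. Genes of low level, such as Mmp8 and Cxcl1, rest on few reads.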
